A study of Mus musculus with 12 samples.

Results

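The genes described here are 2 mouse ubiquitin genes (*Ubb* and *Rps27a*) and 5 genes of shuttle factors that carry ubiquitinated proteins to the proteasome (*Ubqln1*, *Ubqln2*, *Ubqln4*, *Rad23b* and *Ddi2*). They were chosen by gene name and pathway, with earlier results of these data known, and make up 7 of the 27179 genes listed in the count data. All 7 were among the 14185 genes that passed the filter on low counts. RNA-seq was performed on primary hippocampal neurons of newborn C57BL/6 mouse pups (postnatal day 0 or 1, and the study's methods also name FVB mice), cultured for 17 or 18 days in Transwell inserts, whose porous membrane lets neurites grow through and be harvested separately from the somas. Cultures were either exposed to the proteasome inhibitor MG132 (10 μM for 7 h) or given its solvent DMSO (Ctrl), which gave 4 groups of 3 libraries: Ctrl somas, MG132 somas, Ctrl neurites and MG132 neurites. No group carried a transgene or an engineered allele. Nothing in the labels says that replicates came from separate litters, so p-values measure the spread between these libraries.

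Ubiquitin is made as fusion proteins that are cut into single ubiquitins. *Ubb* encodes head-to-tail repeats of ubiquitin and is known as a stress-responsive gene, whereas *Rps27a* encodes 1 ubiquitin fused to a ribosomal protein. Shuttle factors bind ubiquitin chains with a ubiquitin-associated domain and the proteasome with a ubiquitin-like domain. Ubiquilins (*Ubqln1*, *Ubqln2*, *Ubqln4*) and RAD23 proteins work in this way, and mutations of the human counterpart of *Ubqln2* cause amyotrophic lateral sclerosis. DDI2 is a shuttle-like aspartic protease that cuts and activates NRF1 (*Nfe2l1*), the transcription factor that restores proteasome gene expression when the proteasome is inhibited.

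Stretches of the ubiquitin genes recur within a gene or in other annotated loci, and this sets what their counts can show. To compare both genes, their first 30 coding bases are printed from GENCODE M21 (GRCm38), 5′ to 3′, with capitals at bases that differ from *Ubb*.
Ubb: atgcagatcttcgtgaagaccctgaccggc
Rps27a: atgcagatcttTgtgaagaccctTacGggG
*Rps27a* differs from *Ubb* at 4 of these bases. The *Ubb* coding sequence holds 4 ubiquitin units of 228 bases that are 95.6% to 99.1% identical to each other. The single ubiquitin unit of *Rps27a* is 80.7% identical to the first unit of *Ubb*.

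Of all 75-base windows in the longest transcript of each gene, 35.1% in *Ubb* and 32.5% in *Rps27a* were found at a single place among the annotated transcripts. *Ubb* windows recurred in its own repeats and in the *Gm1821* and *Gm8797* loci, and *Rps27a* windows in 10 other genes. In contrast, 100% of windows were found once in *Ubqln1*, *Ubqln2*, *Ubqln4* and *Rad23b*, and 82.3% in *Ddi2*, whose remaining windows lie in the overlapping gene *Rsc1a1* (at most 3 counts in any library). A read that fits several places equally well is left out by the default of the counting tool. Counts on the ubiquitin genes thus cover part of their reads and are uncertain, while those on the shuttle factors other than *Ddi2* are nearly free of this limit. How many *Ddi2* reads were left out at the overlap was not tested, and the *Rsc1a1* counts do not show it.

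**Figure D1:**
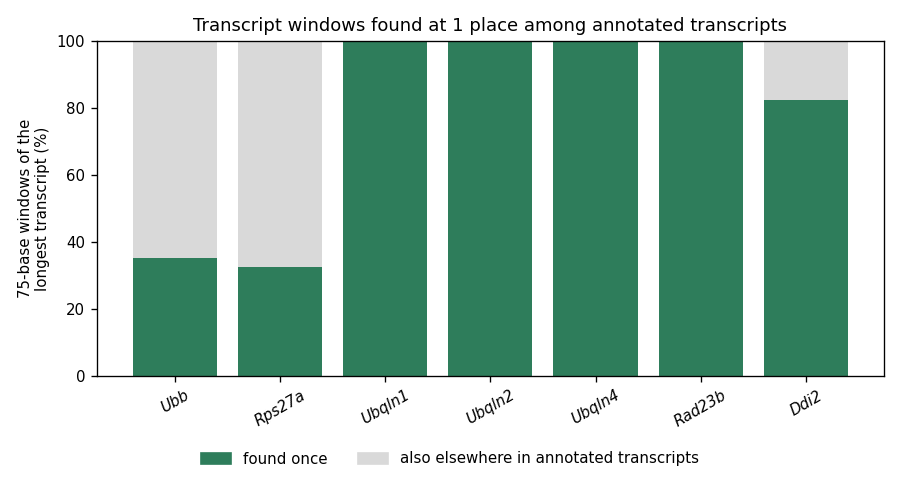
Share of 75-base windows (vertical axis, %) of the longest transcript of each gene that occur at 1 place among annotated transcripts (green) or also elsewhere, in the same or another gene (grey). The ubiquitin genes lie at 35.1% and 32.5%, and the 5 shuttle factors between 82.3% and 100%.

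Libraries held 4247610 to 22166347 reads on genes, and the 7 genes took 0.0288% to 0.081% of them. Levels are given as CPM, the counts put on a common library size by the trimmed mean of M-values (TMM). The TMM factors were 1.18 to 1.44 in somas and 0.567 to 0.999 in neurites. The rank of one gene against another is given as CPM per kilobase of exon. On that length scale, *Ubqln1* was the highest of the 7 in Ctrl somas (23.4 ± 2.58 CPM per kilobase, SD, n = 3), followed by *Ubqln2* (18.4 ± 3.0) and *Rad23b* (14.5 ± 1.0), and the SDs of neighbours in this order overlapped. *Ubqln4* (4.59 ± 0.886), *Ubb* (2.65 ± 1.27), *Rps27a* (0.824 ± 0.389) and *Ddi2* (0.748 ± 0.0541) were lower. In MG132 neurites, *Ubqln1* (64.6 ± 2.36 CPM per kilobase) stood above *Rad23b* (49.5 ± 3.19), and *Rad23b* stood above *Ubqln2* (14.2 ± 1.92) by more than their SDs. The order depends on the length used. Per kilobase of the 75-base windows found once, *Rad23b* (22.3 ± 1.54) was above *Ubqln2* (18.8 ± 3.07) in Ctrl somas, with *Ubb* (8.88 ± 4.24) and *Rps27a* (6.97 ± 3.29) above *Ubqln4* (5.85 ± 1.13), and the SDs of *Ubqln1* (78.8 ± 2.87) and *Rad23b* (75.9 ± 4.90) in MG132 neurites overlapped. The ubiquitin genes cannot be ranked against the shuttle factors from these values, since only part of their reads was counted.

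The labelled cell type was checked against marker genes. All 9 neuronal markers (such as *Map2*, *Camk2a* and *Snap25*) were counted in every library, with summed levels of 1296 to 2123 CPM in Ctrl somas and 1704 to 3819 CPM in Ctrl neurites. These sums were led by *Camk2a* or *Map2*. Between Ctrl compartments, 0 of the 9 passed an edgeR adjusted p under 0.01 (median log2 ratio of neurites to somas -0.34). Of 5 dendritic RNAs, 0 passed it (median 0.58). Markers of other cells were also abundant. The 7 astrocyte markers, led by *Gfap*, summed to 4576 to 5772 CPM in Ctrl somas, 2370 to 3138 in MG132 somas, 20847 to 25954 CPM in Ctrl neurites and 9634 to 19812 CPM in MG132 neurites, and none was at 0 in any library. Of the oligodendrocyte lineage, 6 markers led by *Mbp* summed to 727 to 3085 CPM in Ctrl somas and 4089.9 to 19111 CPM in Ctrl neurites. This sum follows *Mbp* (log2 ratio 2.89). Of the 6 markers, 0 passed an edgeR adjusted p under 0.01 between Ctrl compartments. Their median log2 ratio was 0.19, and the lowest was -0.45. Microglial markers, led by *C1qa* and *Cx3cr1*, summed to 504 to 618 CPM in Ctrl somas and 507 to 1000 CPM in Ctrl neurites, against 124 to 217 CPM in somas and 76.6 to 170.3 CPM in neurites after MG132. These are bulk samples, so fewer cells of a type and less RNA per cell cannot be told apart, and the part of non-neuronal RNA in the results on the 7 genes was not tested.

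To ask whether proteasome inhibition changed these mRNAs in somas, MG132 somas were compared with Ctrl somas. Of the 7 genes, 4 increased (*Ubqln1*, *Rad23b*, *Ddi2* and *Ubb*) and none decreased at an edgeR adjusted p under 0.01. Across all tested genes, 9.52% increased and 5.72% decreased by the same call (1350 and 812 genes, or 492 and 417 when scaled by total counts). The median log2 fold change was 1.23 over the 7 genes, against -0.07 over all genes. In the same comparison 5 of 7 astrocyte, 3 of 6 microglial, 2 of 6 oligodendrocyte-lineage and 3 of 4 tested fibroblast and vessel markers decreased (median log2 fold changes of -1.19, -1.49, -1.50 and -2.09), and their part in these results was not tested.

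*Ubqln1* (Entrez 56085, GRCm38 chr13:58176156-58215653) encodes a broadly expressed ubiquilin. It measured 112, 90.3 and 108 CPM in the 3 Ctrl somas libraries and 248, 264 and 287 CPM in the 3 MG132 somas libraries. The groups were far apart and the replicates close together. The change was 2.58-fold, a log2 fold change of 1.37 (standard error, SE, 0.15, edgeR adjusted p = 2.57e-05).

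*Rad23b* (Entrez 19359, chr4:55350042-55392237) encodes a RAD23 shuttle that also acts in nucleotide excision repair. It measured 80.2, 89.9 and 79.8 CPM in Ctrl somas and 200.5, 197 and 188 CPM in MG132 somas. All MG132 libraries were above all Ctrl libraries. The log2 fold change was 1.23 (SE 0.14, edgeR adjusted p = 3.64e-05), or 2.34-fold.

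*Ddi2* (Entrez 68817, chr4:141683563-141723419) measured 7.17, 7.64 and 6.61 CPM in Ctrl somas and 18.5, 21.4 and 16.7 CPM in MG132 somas. The groups did not overlap, as for 23.2% of all genes in this direction. Its log2 fold change of 1.39 (SE 0.26, edgeR adjusted p = 0.00108) equalled 2.63-fold. Scaled by total counts the change was 1.36 and was not called (edgeR adjusted p = 0.018).

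*Ubb* (Entrez 22187, chr11:62551171-62553213) had 68, 58 and 20 counts in Ctrl somas and 146, 46 and 438 counts in MG132 somas, which corresponded to 4.69, 6.42 and 2.20 CPM and to 13.5, 9.11 and 17.9 CPM. The groups did not overlap, but the replicates of each spread widely. The log2 fold change was 1.62 (SE 0.38, edgeR adjusted p = 0.00627), or 3.06-fold. This call was lost when Ctrl somas replicate 1 or 3 or MG132 somas replicate 1 or 3 was left out (log2 fold changes of 1.30 to 1.95 over all 6 omissions, highest edgeR adjusted p = 0.0374). It was also lost on total counts (edgeR adjusted p = 0.0256), on total counts without mitochondrial genes and the most read gene (edgeR adjusted p = 0.0102) and when only both soma groups were fitted (edgeR adjusted p = 0.0172).

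*Rps27a* was not called in somas. This gene (Entrez 78294, chr11:29545842-29548040), which encodes ubiquitin fused to ribosomal protein eS31, had 13, 14 and 22 counts in Ctrl somas and 26, 24 and 58 in MG132 somas. Its log2 fold change of 0.95 (SE 1.0) had an edgeR adjusted p of 0.519. The 95% interval of -1.18 to 3.09 holds a 2-fold change either way.

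The other ubiquilins had smaller values of the response. *Ubqln2* (Entrez 54609, chrX:153498232-153501562), an intronless ubiquilin gene, measured 69.3, 50.1 and 64.8 CPM in Ctrl somas and 72.6, 49.5 and 71.1 CPM in MG132 somas. The groups overlapped almost fully. The log2 fold change was 0.07 (SE 0.22, 95% interval -0.40 to 0.55, edgeR adjusted p = 0.844), an interval that lies below the interval of *Ubqln1* (1.04 to 1.69). *Ubqln4* (Entrez 94232, chr3:88553677-88569725) measured 20.4, 21.8 and 14.9 CPM in Ctrl somas and 26.3, 21.6 and 27.1 CPM in MG132 somas. Its log2 fold change of 0.40 (95% interval -0.09 to 0.88) was not called (edgeR adjusted p = 0.215). The difference between paralogs was not tested directly.

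**Figure D2:**
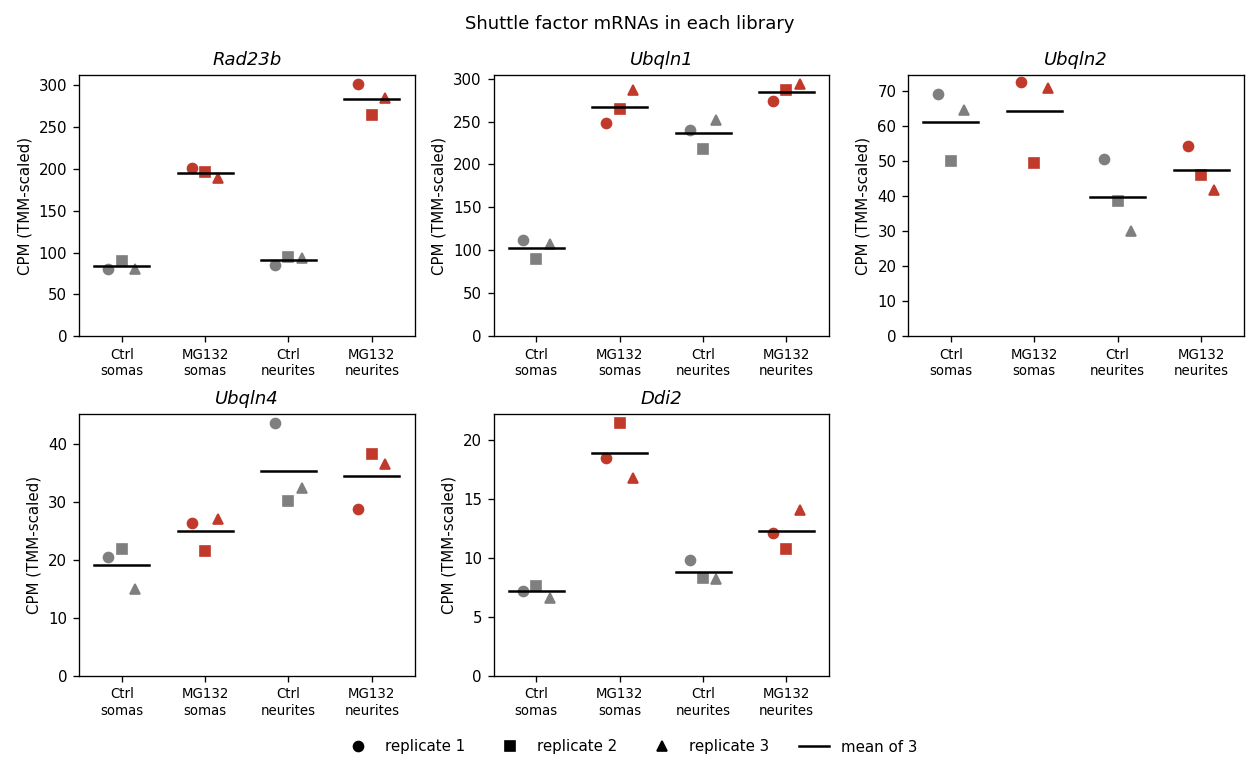
TMM-scaled CPM (vertical axes, from 0) of the 5 shuttle factors in each library, by group. Grey points are Ctrl, red points MG132, the marker shape is the replicate number and the line is the mean of 3. *Rad23b* is higher with MG132 in both compartments, whereas on this scale *Ubqln1* is low in Ctrl somas only. The ratios of *Ubqln1* between compartments depended on the scaling.

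In neurites, the same comparison was made between MG132 and Ctrl. Of the 7 genes, 1 increased (*Rad23b*) and none decreased at an edgeR adjusted p under 0.01, while 9.76% of all tested genes increased and 5.67% decreased (1385 and 804 genes, or 482 and 538 when scaled by total counts). The median log2 fold change was 0.34 over the 7 genes, against -0.16 over all genes. In this comparison 4 of 6 microglial, 3 of 7 astrocyte and 3 of 6 oligodendrocyte-lineage markers decreased (median log2 fold changes of -2.14, -0.87 and -1.93), and their part in these results was not tested. The comparisons in somas and neurites use separate libraries, but the study's methods harvest both compartments from the same membranes, so their controls may come from the same cultures.

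*Rad23b* measured 85.4, 94.1 and 93.1 CPM in Ctrl neurites and 301, 265 and 285 CPM in MG132 neurites. Each MG132 library was well above every Ctrl library, and the Ctrl neurites were near the level of Ctrl somas. The log2 fold change was 1.64 (SE 0.15, edgeR adjusted p = 2.6e-06), or 3.12-fold, and ranged from 1.60 to 1.78 when any 1 library was left out.

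*Ubqln1* measured 240.2, 218 and 251 CPM in Ctrl neurites and 274, 286.5 and 294.2 CPM in MG132 neurites. The groups did not overlap, as for 20.4% of all genes in this direction, but the gap was small next to that in somas. The log2 fold change was 0.27 (SE 0.15, 95% interval -0.05 to 0.59) and was not called (edgeR adjusted p = 0.203). With 1 library left out it ranged from 0.22 to 0.43, with no call. *Ddi2* measured 9.78, 8.27 and 8.23 CPM in Ctrl neurites and 12.1, 10.7 and 14.0 CPM in MG132 neurites, again with no overlap. Its log2 fold change of 0.49 (95% interval -0.07 to 1.04) was not called (edgeR adjusted p = 0.184).

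*Ubb* measured 8.19, 6.93 and 7.89 CPM in Ctrl neurites and 8.66, 9.21 and 11.2 CPM in MG132 neurites. The groups met without overlapping, and the log2 fold change of 0.34 (95% interval -0.48 to 1.16) was not called (edgeR adjusted p = 0.549). *Ubqln2* measured 50.7, 38.8 and 30.1 CPM in Ctrl neurites and 54.5, 46.2 and 41.9 CPM in MG132 neurites, with overlapping groups (log2 fold change 0.26, edgeR adjusted p = 0.431). *Ubqln4* measured 43.6, 30.05 and 32.4 CPM in Ctrl neurites and 28.7, 38.3 and 36.5 CPM in MG132 neurites, a log2 fold change of -0.02 (95% interval -0.51 to 0.46, edgeR adjusted p = 0.946). Neither ubiquilin passed the test in either compartment.

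*Rps27a* varied widely between Ctrl neurites libraries. It had 0, 1 and 18 counts in Ctrl neurites and 8, 20 and 10 in MG132 neurites, and leaving out 1 library moved its log2 fold change from 0.45 to between -0.13 and 4.21, with no call.

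**Figure D3:**
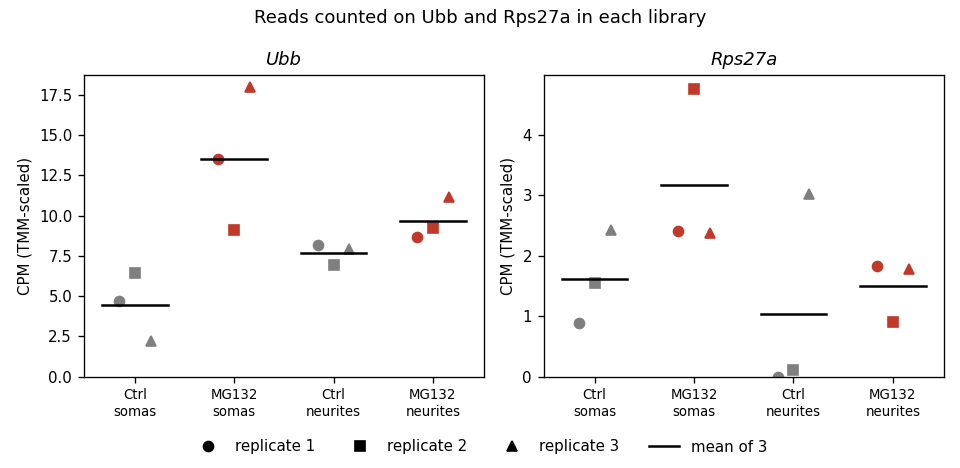
TMM-scaled CPM (vertical axes, from 0) counted on *Ubb* and *Rps27a* in each library, by group. Grey points are Ctrl, red points MG132, the marker shape is the replicate number and the line is the mean of 3. *Ubb* in somas is the pair of groups without overlap that was called, and *Rps27a* overlaps between Ctrl and MG132 in both compartments.

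Whether the response to MG132 differed between compartments was tested as the difference of both log2 fold changes, neurites minus somas. edgeR called 0 of 14185 genes here (7.05% had an unadjusted p under 0.05), so none of the 7 genes was called, while DESeq2 called 29 genes and edgeR with the replicate number as a block called 21. *Ubqln1* ranked 4 of all 14185 genes by unadjusted p. The same 3 Ctrl somas libraries enter this difference, the response in somas and the ratio of Ctrl compartments, so these are not independent of each other. Its difference was -1.10 (SE 0.21, 95% interval -1.55 to -0.65, edgeR adjusted p = 0.328), and it was negative in 3 of 3 replicate numbers (-0.97, -1.15 and -1.18). With the replicate block the same difference was called (-1.10, edgeR adjusted p = 0.00557), as it was by DESeq2 (DESeq2 adjusted p = 4.36e-05).

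*Ddi2* and *Ubb* also had smaller fitted responses in neurites. The difference was -0.91 (SE 0.36, edgeR adjusted p = 0.62) for *Ddi2* and -1.28 (SE 0.54, edgeR adjusted p = 0.662) for *Ubb*, both negative in 3 of 3 replicate numbers. *Rad23b* had the opposite sign, at 0.41 (SE 0.20, 95% interval -0.01 to 0.84, edgeR adjusted p = 0.722), and was higher in neurites in 3 of 3. None of these 3 differences was called with the block or by DESeq2, where DESeq2 gave an adjusted p.

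**Figure D4:**
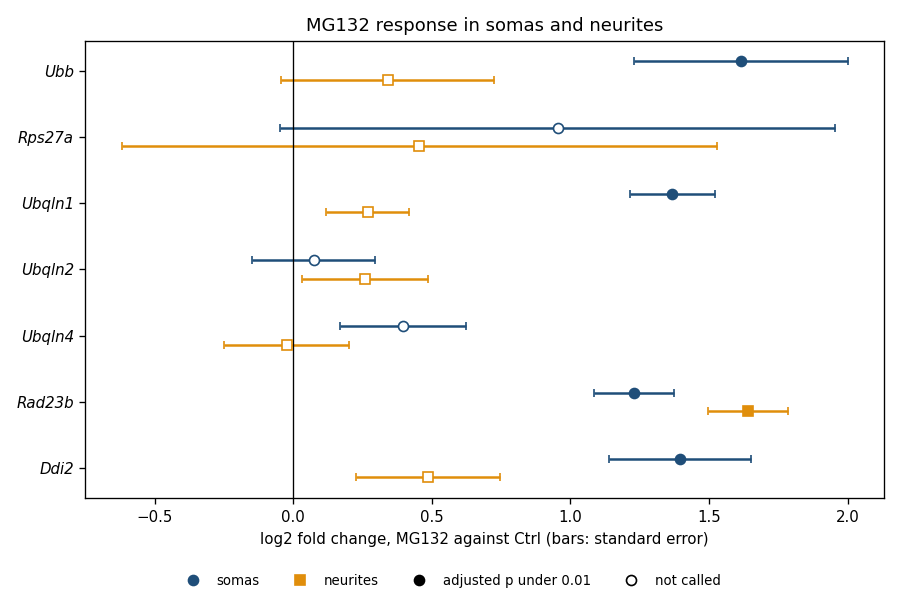
Log2 fold change of MG132 against Ctrl (horizontal axis) with its standard error for the 7 genes, in somas (blue circles) and neurites (orange squares). Filled markers have an edgeR adjusted p under 0.01. *Ubqln1*, *Ddi2* and *Ubb* are called in somas alone, and *Rad23b* in both compartments.

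The compartments were then compared within each condition, neurites against somas. In Ctrl cultures *Ubqln1* was the only one of the 7 genes called (6.31% of all genes were higher in neurites and 1.3% lower). Its mean level was 236.6 ± 17.1 CPM in neurites and 103 ± 11.4 CPM in somas (SD, n = 3 each), a log2 ratio of 1.20 (SE 0.15, edgeR adjusted p = 7e-05), higher in 3 of 3 replicate numbers. On total counts the ratio was 0.52 (edgeR adjusted p = 0.208), under which scaling the median of all genes moved from -0.04 to -0.70 and the calls over all genes from 895 higher and 185 lower to 179 and 936. Of 7 astrocyte markers, 3 were higher in Ctrl neurites, led by *Gfap* (log2 ratio 3.18, edgeR adjusted p = 2.28e-05). The others were not called (*Aldh1l1* at 1.18, *Aldoc* at 0.08, *Slc1a3* at -0.09 and *Aqp4* at -0.22). Of 5 soma or nucleus RNAs 1 was lower in Ctrl neurites, as was 1 of 4 tested fibroblast and vessel markers (median log2 ratios of -1.29 and -1.51). The part of all these markers in the *Ubqln1* ratio was not tested.

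Other shuttle factors leaned either way between Ctrl compartments. *Ubqln4* had a log2 ratio of 0.89 (SE 0.23, 95% interval 0.40 to 1.38), not called without the block (edgeR adjusted p = 0.0164) and called with it (0.88, edgeR adjusted p = 0.00548). *Ubqln2* had a ratio of -0.63 (95% interval -1.11 to -0.15, edgeR adjusted p = 0.0771) and was lower in neurites in 3 of 3 replicate numbers. On total counts *Ubqln2* was called lower (-1.33, edgeR adjusted p = 0.00646). *Rad23b* (0.13, 95% interval -0.18 to 0.43) and *Ddi2* (0.29, 95% interval -0.27 to 0.84) had small ratios that turned negative on total counts (-0.54 and -0.39).

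After MG132 no gene of the 7 was called between compartments, against 7.2% of all genes higher and 2.16% lower in neurites (1021 and 307 genes, or 138 and 2115 on total counts). *Ubqln1* no longer differed by a detectable amount, with 285 ± 10.4 CPM in neurites and 267 ± 19.3 CPM in somas (log2 ratio 0.10, 95% interval -0.22 to 0.41, edgeR adjusted p = 0.716). The sign of this ratio turned on total counts (-0.70, edgeR adjusted p = 0.0747) and without mitochondrial genes and the most read gene (-0.33, edgeR adjusted p = 0.112). *Rad23b* measured 284 ± 18.3 CPM in neurites and 195 ± 6.14 CPM in somas without overlap, as for 18.9% of all genes in this direction. Its ratio of 0.54 (SE 0.14) was not called without the block (edgeR adjusted p = 0.0156) but was with it (edgeR adjusted p = 0.00372), and it was -0.27 on total counts, where the median of all genes was -0.86 against -0.08. In the same comparison 5 of 7 astrocyte markers were higher in neurites (median log2 ratio 1.12) and 2 of 5 soma or nucleus RNAs lower (-1.76), and their part in the *Rad23b* ratio was not tested. *Ddi2* was lower in MG132 neurites (12.3 ± 1.66 CPM) than in MG132 somas (18.9 ± 2.36 CPM) in 3 of 3 replicate numbers, at -0.62 (95% interval -1.16 to -0.08, edgeR adjusted p = 0.105). This *Ddi2* ratio was called on total counts (-1.43, edgeR adjusted p = 0.007) and without mitochondrial genes and the most read gene (-1.06, edgeR adjusted p = 0.00828), and *Ubqln2* was called lower on total counts (-1.24, edgeR adjusted p = 0.00592). *Ubb* and *Rps27a* were not called between compartments in either condition. The log2 ratio of *Ubb* was 0.78 in Ctrl (95% interval -0.05 to 1.61) and -0.49 with MG132 (-1.29 to 0.30), and that of *Rps27a* was -0.60 and -1.10. With 1 library left out, the *Ubb* ratio ranged from 0.39 to 1.05 in Ctrl and from -0.70 to -0.18 with MG132, with no call. The *Rps27a* ratio in Ctrl ranged from -4.30 to -0.013 over such omissions, also with no call.

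**Figure D5:**
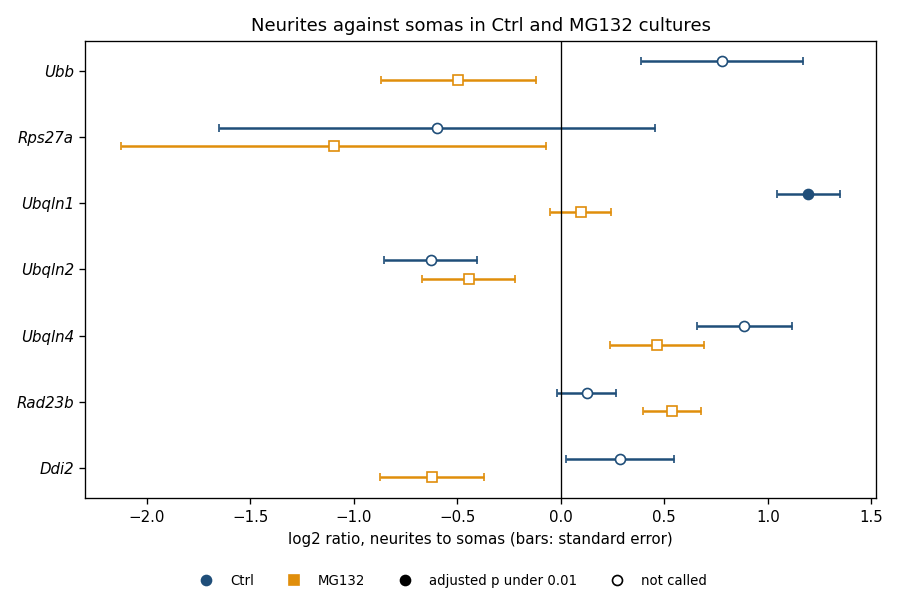
Log2 ratio of neurites to somas (horizontal axis) with its standard error for the 7 genes, in Ctrl (blue circles) and MG132 cultures (orange squares), scaled by TMM. The filled marker has an edgeR adjusted p under 0.01. *Ubqln1* is at 1.20 in Ctrl and 0.10 with MG132.

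Of the paralogs of the shuttle factors, *Ubqln5*, *Ubqlnl* and *Ddi1* had 0 counts in all 12 libraries.

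Of the enzymes that load ubiquitin, some E2 genes passed the test. The 2 ubiquitin-activating E1 genes were not called (*Uba1* 0.15 in somas and 0.22 in neurites, *Uba6* 0.66 and 0.42, all log2 fold changes). Of 31 tested ubiquitin-conjugating E2 genes, 9 increased in somas and 5 in neurites, and none decreased, beside 9.52% and 9.76% of all genes that increased. On total counts the E2 calls were 1 (*Ube2g2*) and 0, beside 492 and 482 increases over all genes (1350 and 1385 by TMM). The largest called changes were those of *Ube2g2*, an E2 of endoplasmic reticulum-associated degradation (1.96 in somas, edgeR adjusted p = 8.34e-05, and 1.27 in neurites), and *Ube2j2*, a membrane-anchored E2 of the same pathway (1.59 and 1.63). The median log2 fold change of the E2 genes was 0.39 in somas and 0.16 in neurites.

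The proteasome-side partners of the shuttles were examined next. Of 10 genes for proteasomal ubiquitin receptors and ubiquitin recycling, 6 increased in each compartment and none decreased, beside 9.52% and 9.76% of all genes that increased. On total counts 2 increased in somas and 3 in neurites, beside 492 and 482 over all genes (1350 and 1385 by TMM). The medians were 0.96 in somas and 1.16 in neurites, beside -0.07 and -0.16 over all genes. *Psmd4*, the receptor subunit also called RPN10, rose by 2.05 in somas (edgeR adjusted p = 2.85e-06) and 2.03 in neurites (edgeR adjusted p = 2.41e-06). *Adrm1*, the receptor RPN13, rose by 1.77 and 1.90, and on total counts it was called in neither compartment (edgeR adjusted p = 0.0231 and 0.0229).

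Genes of the p97 segregase, which extracts ubiquitinated proteins upstream of the shuttles, also included called increases. Of 19 genes, 10 increased in somas and 11 in neurites and none decreased, beside the same 9.52% and 9.76% of all genes that increased. On total counts 3 and 7 increased, beside the same 492 and 482 over all genes. The medians were 1.07 and 1.09. *Zfand2a*, an arsenite-inducible zinc finger protein that binds p97 and the proteasome, rose most (3.32 in somas, edgeR adjusted p = 1.61e-06, and 2.47 in neurites, edgeR adjusted p = 1.38e-05). *Nploc4*, a ubiquitin-binding p97 cofactor, rose by 2.30 and 2.17.

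By TMM, other ubiquitin-like proteins responded to MG132 at a share near that of all genes. Recurring sequence was checked only in the ubiquitin genes, the shuttle factors and their paralogs. Whether genes of this list lost reads in the same way was not tested. Of all genes, 9.52% increased in somas and 9.76% in neurites, or 492 and 482 genes on total counts. Of 16 tested, 2 increased in each compartment (2 and 1 on total counts) and none decreased, with medians of 0.20 in somas and 0.07 in neurites: *Isg15*, an interferon-inducible modifier (3.15, edgeR adjusted p = 0.00683), and *Herpud1*, an endoplasmic reticulum stress gene (1.62), in somas, and *Herpud1* (1.41) and *Nub1* (1.34) in neurites, where *Herpud1* was not called on total counts (1.28, edgeR adjusted p = 0.0201). Between compartments, 2 of 16 were higher in Ctrl neurites and 5 with MG132, and none lower, beside 6.31% and 7.2% of all genes higher. On total counts 1 was higher and 1 lower in each condition. Over all genes, that scaling gave 179 higher and 936 lower in Ctrl, and 138 and 2115 with MG132. *Ufm1*, the UFMylation modifier, had the largest log2 ratio of neurites to somas in this list, at 2.66 in Ctrl (edgeR adjusted p = 1.08e-06) and 2.14 with MG132, followed by *Sumo3* in Ctrl (1.52) and *Nedd8* with MG132 (1.32). On total counts these were 0.83 for *Sumo3* (edgeR adjusted p = 0.0576) and 0.52 for *Nedd8* (edgeR adjusted p = 0.332), neither called. On the DDI2 and NRF1 axis, 1 of 5 genes (*Syvn1*, a ubiquitin ligase of the endoplasmic reticulum, 0.94) increased in somas and none in neurites, beside 9.52% and 9.76% of all genes. This call was lost under each of 3 other scalings (0.85 to 0.92, edgeR adjusted p = 0.0119 to 0.0819). *Nfe2l1*, the substrate of DDI2, was higher in neurites than somas in Ctrl (2.49, edgeR adjusted p = 4.28e-06) and with MG132 (1.76, edgeR adjusted p = 7.24e-05), while *Ddi2* was not called in either. *Sel1l*, which works with *Syvn1*, was lower in neurites after MG132 (-0.87, edgeR adjusted p = 0.00232). On total counts the *Nfe2l1* ratio was 1.85 in Ctrl and 0.96 with MG132, the second not called (edgeR adjusted p = 0.0258).

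The other lists were also compared between compartments, where 6.31% of all genes were higher and 1.3% lower in Ctrl neurites, and 7.2% and 2.16% with MG132. Of the 31 E2 genes, 3 were higher and 1 lower in Ctrl neurites than in Ctrl somas, with log2 ratios of 1.36 for *Ube2r2*, 0.95 for *Ube2h* and -0.81 for *Birc6*. With MG132, 2 were higher, *Ube2r2* (1.14) and *Ube2k* (1.13). Of the receptor and recycling genes, none was called in Ctrl and 2 were higher with MG132, the proteasomal deubiquitinases *Uchl5* (1.62) and *Psmd14* (0.98). Of the 19 p97 genes, 3 were higher in Ctrl neurites, led by *Ubxn1* (1.87) and *Ubxn2a* (1.34), and 4 with MG132, led by *Ubxn1* (2.48) and *Ubxn4* (1.13). The balance depended on the scaling. On total counts, 0 E2 genes were higher and 2 lower in Ctrl, and 0 and 4 with MG132, while 1 p97 gene was higher and 2 lower in Ctrl, and 1 and 4 with MG132. Over all genes, that scaling gave 179 higher and 936 lower in Ctrl, and 138 and 2115 with MG132. Of the genes named here, only *Ubxn1* remained called higher on total counts, at 1.20 in Ctrl (edgeR adjusted p = 0.00788) and also with MG132 (edgeR adjusted p = 0.000382), and *Birc6* lower (-1.52, edgeR adjusted p = 0.00106).

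Genes with the profile closest to each shuttle factor were ranked by Pearson correlation of log2 CPM over the 12 libraries, among the 8211 genes that averaged 10 CPM or more. The libraries share their 4 groups and depth, so the coefficients are descriptive. *Rad23b* was nearest to *Mkln1*, *Eif3g* and *Tars* (0.991, 0.991 and 0.988), and *Ubqln1* to *Eif4e*, *Akirin1* and *Lonp1* (0.974, 0.973 and 0.963). *Ddi2* was nearest to *Atxn1l*, *Ranbp10* and *Senp3* (0.965, 0.962 and 0.956), *Ubqln4* to *Rnf10*, *Chtop* and *Bod1* (0.950, 0.940 and 0.939), and *Ubqln2* had *Ndrg4* and *Mterf4* among its nearest genes (0.939 and 0.918). *Eif4e*, which encodes the cap-binding protein, had log2 fold changes of 1.19 in somas and 0.43 in neurites, and *Tars*, a threonyl-tRNA synthetase gene, 2.20 and 2.66.

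Promoters were searched because 4 of the 7 genes rose together in somas. RefSeq windows of GRCm38.p6, from 250 bases before to 50 bases after the start, were found for 5 of the 7 genes (*Ubb* with 2 windows, *Ubqln1*, *Ubqln4*, *Rad23b* and *Ddi2*). None held, on either strand, the letters of a heat shock element of 3 units (GAA, any 2 bases, TTC, any 2 bases, GAA, or the same starting with TTC), which 0.603% of 32851 promoters hold. Nor did any hold a pair of such units, TTCNNGAA (in 8.52% of promoters) or GAANNTTC (7.86%), each its own reverse complement. The core of the antioxidant response element (TGACNNNGC or GCNNNGTCA), held by 12.4% of promoters, was found in 1 of these windows, the second of *Ubb*, at chr11:62551692-62551720 on the plus strand with the match in capitals.
Ubb match: cgaggtgacgTGACGCGGCaacgggcctt
Its first base lies at position -29 from the start site of this second window, inside the *Ubb* gene span given above. A match of letters is a description of the sequence and says nothing of a factor's binding.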

How the data were processed

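Per the labels, poly(A)-selected RNA of somas and neurites was sequenced. The deposited files hold raw counts per Entrez gene and library, made by the authors with Trimmomatic 0.38.0 and featureCounts 2.0.1 on mm10, per the submitters' processing notes, which also name DESeq2 2.11.40.7. STAR was the aligner, per the study's methods. No count column was pooled.

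Symbols were matched for 25275 of 27179 genes (93%), and no 2 of the 66 library pairs were identical. Counts were filtered with filterByExpr, scaled by TMM and fitted in edgeR 4.0.16 (R 4.3.3; quasi-likelihood, 4 group means, Benjamini-Hochberg over 14185 genes, call at adjusted p under 0.01). CPM correlations used a prior count of 2. Poisson noise limits genes of few counts. All 7 genes are named, and for each pathway list the 2 largest called changes in each direction. Some results of genes in these families and lists are not reported here. The 7 genes and all lists were chosen with earlier results of these data known.

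Replicate numbers follow dates in the library names, except MG132 neurites replicate 3. They were treated as pairs only in the replicate block and in the counts over replicate numbers, not in the main fit. Deviations of same-numbered libraries from their group means correlated at 0.0972 to 0.248 (mean 0.199, 18 pairs). Alternatives were DESeq2 1.42.0, other scalings, filters and thresholds, the replicate block, the compared groups alone and each library left out. Other scalings of the pathway lists were added after seeing the data.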

Additional observations from a re-analysis of the deposited data

Results flagged for a closer look

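The response of *Ubqln1* to MG132 differed between somas and neurites by an interaction term in the fit with the replicate number as a block, at -1.10 on the log2 scale (neurites minus somas, edgeR adjusted p = 0.00557), while the fit without the block did not call it (edgeR adjusted p = 0.328). It was negative in 3 of 3 replicate numbers. The block and this count take MG132 neurites replicate 3 as labelled, although its number does not follow the library dates. In the fit without the block it ranged from -1.15 to -0.89 when any 1 library was left out and was not called in any of these 12 fits (edgeR adjusted p = 0.277 to 0.711), which were not run with the block. Ctrl somas were at 103 ± 11.4 CPM, and the other 3 groups at 236.6 ± 17.1 to 285 ± 10.4 CPM (SD, n = 3 each). These levels are scaled by TMM. On total counts the *Ubqln1* ratio between Ctrl compartments was not called, and its ratio between MG132 compartments turned negative.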

How the results depend on the processing

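Counts of the 7 genes called changed as follows. In somas the 4 calls became 2 on total counts (*Ddi2* and *Ubb* lost), 0 with an added log2 threshold of 1.7, 3 without mitochondrial genes and the most read gene and 3 with only the groups compared (*Ubb* lost in both), and 3 to 4 with 1 library left out. In neurites the 1 call became 0 with that threshold. Between Ctrl compartments the 1 call became 2 on total counts without mitochondrial genes and the most read gene (*Ubqln2* lower beside *Ubqln1*), 2 by DESeq2, with the replicate block and at adjusted p under 0.05 (*Ubqln4* higher beside *Ubqln1*), and 0 with the log2 threshold. On total counts the 1 call was *Ubqln2*, lower, not *Ubqln1*. Between MG132 compartments 0 became 2 on total counts (*Ddi2* and *Ubqln2*, both lower), 1 without mitochondrial genes and the most read gene (*Ddi2*, lower), and 1 by DESeq2, with the block and at adjusted p under 0.05 (*Rad23b*, higher). For the difference between responses, 0 became 1 by DESeq2 and with the block. The block changed no other call among the 7 genes, but moved calls over all genes from 2162 to 3567 in somas, 2189 to 3542 in neurites, 1080 to 2087 between Ctrl compartments and 1328 to 2482 between MG132 compartments. DESeq2 gave 3275, 3216, 1843 and 2141, and total counts 909, 1020, 1115 and 2253. Adjusted p under 0.05 gave 3897, 3823, 2111 and 2516, the log2 threshold 644, 657, 349 and 362, and total counts without mitochondrial genes and the most read gene 1626 between Ctrl compartments. With 1 library left out, calls over all genes ranged from 1317 to 1673 in somas (lowest without Ctrl somas replicate 1, then MG132 somas replicates 1 and 3 at 1416 and 1437), 1596 to 1970 in neurites, 674 to 983 between Ctrl compartments (674, 690 and 692 without Ctrl somas replicates 1, 2 and 3 and 688 without Ctrl neurites replicate 3) and 762 to 1006 between MG132 compartments (762 without MG132 neurites replicate 2, 805 without MG132 somas replicate 1).

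Signs that turned were these log2 values. On total counts, neurites against somas gave *Ddi2* -0.39 and *Rad23b* -0.54 in Ctrl, and *Rad23b* -0.27, *Ubqln1* -0.70 and *Ubqln4* -0.31 with MG132. Without mitochondrial genes and the most read gene they were *Ddi2* -0.18 and *Rad23b* -0.34 in Ctrl, *Ubqln1* -0.33 with MG132, and *Ubqln2* -0.018 for MG132 in somas. A minimum of 10 counts gave *Ubqln2* -0.028 in somas. No filter gave *Ubqln4* 0.11 in neurites and the compared groups alone *Ubqln4* 0.0040 in neurites. With 1 library left out, *Ubqln2* ranged from -0.058 to 0.23 in somas, *Ubqln4* from -0.13 to 0.15 and *Rps27a* from -0.13 to 4.21 in neurites, and the difference between responses of *Rps27a* from -1.08 to 3.25. Its ratio between Ctrl compartments stayed negative, from -4.30 to -0.013. The cause was not tested. The planned ratio of *Ubb* to *Rps27a* was not run, since 1 library has 0 *Rps27a* counts.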
